A study of Mus musculus with 17 samples.

Results

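The enzymes that make acetyl-CoA from pyruvate and run the citrate cycle were followed, enzyme by enzyme, in colon RNA of mice with and without PPAR γ in their T cells. The set held 32 genes and was taken from a fixed list of names, whose rule uses no measured value, although the list was drawn up with earlier results of these data known. A probe set counted for an enzyme when its only gene symbol was that enzyme, and where an enzyme had several, the one with the highest mean over all samples stood for it. All 32 enzymes were found, on 78 of the 45037 probe sets tested, and they are 32 of the 18193 genes that had such a probe set. The study itself singled out the citrate cycle from these samples, so the direction of the set as a whole is no independent evidence. All 32 were above the background level of 3.26 on the log2 scale in all 17 samples, so no enzyme was lost to a filter.

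Colonic RNA was hybridized to Affymetrix mouse genome arrays, which carry probe sets for most mouse genes. CD4cre mice carried floxed PPAR γ alleles and a Cre recombinase driven by the CD4 promoter, which is active in T cell precursors, so the gene is lost from CD4+ and CD8+ T cells and is kept by the epithelium and the other cells of the colon. WT mice lacked Cre, and both genotypes were in the C57BL/6J background. Mice of each genotype were sampled without DSS (day 0) or after 2 or 7 days of 2.5% DSS in the drinking water, an agent that injures the colonic epithelium. Each group held 3 samples, except for WT mice on day 7 with 2. How many mice stood behind each array is not given in the sources used here, and the p-values measure only how these samples spread, which may be technical in part.

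Pyruvate enters the mitochondrion through a carrier and is turned into acetyl-CoA by the pyruvate dehydrogenase complex, which kinases switch off by phosphorylation and phosphatases switch back on. Citrate synthase joins acetyl-CoA to oxaloacetate, and the cycle then oxidizes citrate step by step to regenerate oxaloacetate, passing electrons to the respiratory chain. Colonocytes rely on this oxidation, and they draw much of its acetyl-CoA from the butyrate that gut bacteria make.

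Pparg, the targeted gene, had log2 values from 8.28 to 11.21 over all samples and was called in no comparison, which does not check a deletion limited to T cells. The samples differed in composition. Pancreatic acinar genes had a median log2 value of 12.32 to 13.03 in 3 samples (replicate 2 of CD4cre mice on day 0, replicate 1 of CD4cre mice and replicate 2 of WT mice on day 2) and of 2.29 to 2.60 in the other 14. Of the 16 epithelial markers, none had a group mean under background, while the 8 smooth muscle markers had a mean of 11.21 to 12.52 in every sample, although the labels name mucosa. The 8 T and B cell markers measured had a mean of 3.04 to 4.13, close to the background level. A score of position along the colon, taken as how far on average, in log2 units, 9 Hox genes numbered 9 to 13 stood above 8 with lower numbers, ran from -1.49 to 1.13. In whole tissue, fewer cells of a type and less RNA per cell cannot be told apart.

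In CD4cre mice, enzymes of the mitochondrial steps were lower after 7 days of DSS than without it. Of the 32, 10 fell and none rose at an adjusted p under 0.05 from limma, which was 31.2% of the set. Of all 45037 probe sets 3.24% were called lower in this comparison, and of the 11831 genes whose probe set had a mean above background 6.58%. The 10 were Dld, Dlat and Pdhb of the pyruvate dehydrogenase complex, the kinase Pdk2, and Cs, Idh3a, Idh3b, Idh3g, Suclg1 and Mdh2 of the cycle. The difference in log2 value was negative for 28 of the 32, with a median of -0.38, against a median of -0.03 over all probe sets and of -0.04 over the genes above background. All 3 samples of day 7 lay under all 3 of day 0 for 12 enzymes, and no enzyme showed the opposite order. This order was found for 36.6% of all probe sets and for 19.1% of the genes above background.

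By role, on the probe sets that stood for the enzymes, 3 of the 5 genes of the complex fell, 1 of the 4 kinases and 6 of the 16 mitochondrial cycle enzymes. None of the 5 cytosolic enzymes and neither of the 2 side reactions fell on these probe sets, but further probe sets of Acly, Mdh1 and Me2 did, as given further on. At an unadjusted p under 0.05 there were 18 enzymes, beside 4024 of the 11831 genes above background. In WT mice the same comparison called none of the 32 (0.0866% of all probe sets were called), with a lowest adjusted p of 0.488, 28 negative differences and a median of -0.20. The WT median was -0.03 over all probe sets and 0.04 over the genes above background. There, 7 enzymes were at an unadjusted p under 0.05, beside 1277 of the 11831 genes above background. Both WT samples of day 7 lay under all 3 of day 0 for 13 enzymes, an order found for 35.8% of all probe sets and for 14.4% of the genes above background. A call in one genotype and not in the other does not show that they differ, and the test of that difference is given further on. The 10 calls depended on the design of the fit. Its estimate of the spread was shared by all groups, although the CD4cre samples of day 7 spread more widely, as given further on. When only the 2 groups at issue were fitted, none of the 32 was called. Leaving out the 3 samples with pancreatic transcripts left the call of Dld only, while all 10 differences stayed negative at 0.869 to 1.09 times their size, and the other 9 had adjusted p from 0.0568 to 0.129. Without CD4cre day 0 replicate 1 there were 6 calls.

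**Figure D1:**
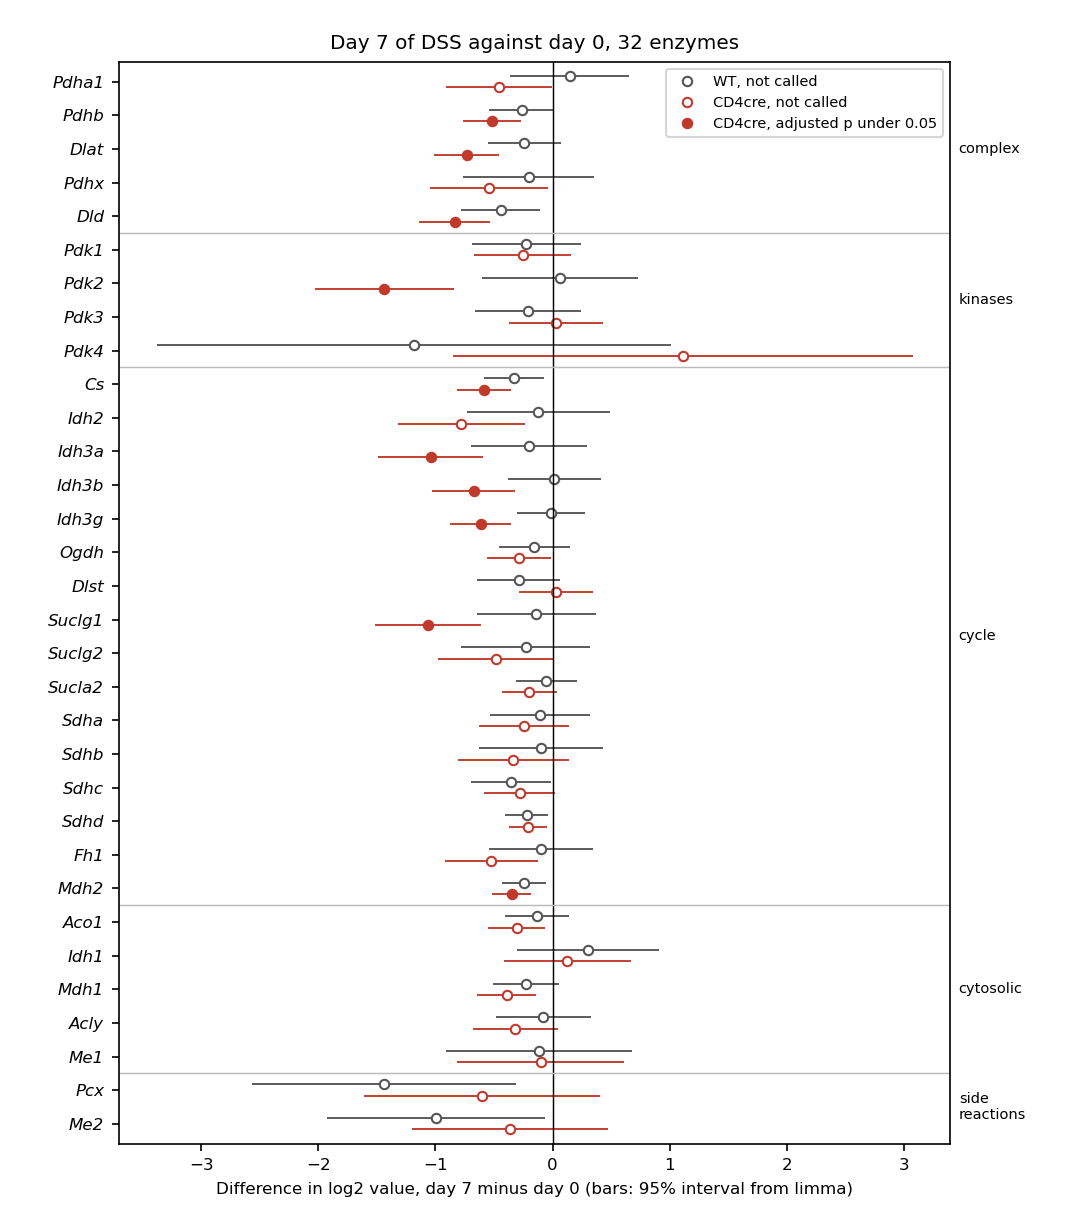
Difference in log2 value between day 7 and day 0 (x axis) for each of the 32 enzymes (y axis, by role) in WT mice (grey) and CD4cre mice (red), with the 95% interval from limma as bars. Filled points have an adjusted p under 0.05, and all 10 of them are red and lie left of 0.

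The promoters of the enzymes were read from RefSeq windows on GRCm38.p6, which hold 250 bases before and 50 after a transcription start, and 29 of the 32 enzymes had at least 1 window. The window is shown up to 20 bases after the start for the enzyme with the lowest adjusted p in each of the 3 roles that held a call (Dld, Cs and Pdk2), since these 3 stand for the genes that fell together, and for Ogdh and Dlst, which hold one of the motifs searched and were not called. Capitals mark a motif match, on either strand.
Dld, chr12:31351452-31351721, - strand: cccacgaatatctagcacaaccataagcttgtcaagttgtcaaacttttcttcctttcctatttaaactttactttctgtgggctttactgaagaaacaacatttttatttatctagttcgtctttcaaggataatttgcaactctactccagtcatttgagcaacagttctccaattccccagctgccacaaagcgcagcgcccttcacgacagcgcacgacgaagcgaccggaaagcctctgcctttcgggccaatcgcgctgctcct
Cs, chr10:128337477-128337746, + strand: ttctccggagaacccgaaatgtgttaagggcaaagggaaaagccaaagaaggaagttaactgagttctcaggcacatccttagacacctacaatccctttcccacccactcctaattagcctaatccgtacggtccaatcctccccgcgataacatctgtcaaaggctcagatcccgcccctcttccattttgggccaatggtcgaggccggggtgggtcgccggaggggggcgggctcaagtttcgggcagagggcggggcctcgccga
Pdk2, chr11:95041352-95041621, - strand: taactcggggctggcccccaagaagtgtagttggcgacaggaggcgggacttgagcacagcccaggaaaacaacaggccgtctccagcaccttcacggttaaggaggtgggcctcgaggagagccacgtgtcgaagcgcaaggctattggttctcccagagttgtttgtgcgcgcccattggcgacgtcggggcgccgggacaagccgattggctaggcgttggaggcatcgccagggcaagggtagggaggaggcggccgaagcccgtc
Ogdh, chr11:6292308-6292577, + strand: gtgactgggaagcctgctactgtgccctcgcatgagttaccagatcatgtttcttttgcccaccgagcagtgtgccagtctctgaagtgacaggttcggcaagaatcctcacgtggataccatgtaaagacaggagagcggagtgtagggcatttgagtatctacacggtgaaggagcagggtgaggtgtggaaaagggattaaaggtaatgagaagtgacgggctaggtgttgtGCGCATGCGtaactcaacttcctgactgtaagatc
Dlst, chr12:85110583-85110852, + strand: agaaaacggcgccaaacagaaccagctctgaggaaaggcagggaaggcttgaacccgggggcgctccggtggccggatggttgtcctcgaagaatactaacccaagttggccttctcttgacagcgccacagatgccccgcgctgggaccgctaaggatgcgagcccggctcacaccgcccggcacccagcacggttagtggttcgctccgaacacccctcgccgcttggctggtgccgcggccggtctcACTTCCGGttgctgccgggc
Of Pdk2, with 2 windows, the first listed is shown, and of Ogdh, with 6, the first with a match. Motifs of regulators of mitochondrial genes were searched as exact letters. The estrogen-related receptor element TCAAGGTCA was in the window of 1 enzyme (Sdhd) and in 0.423% of all 32851 windows. The NRF1 motif GCGCATGCG was in 1 (Ogdh, 1 site in a pair of overlapping windows) and in 1.75%, and the ETS motif ACTTCCGG in 1 (Dlst) and in 3.89%. A pair of AGGTCA in the same direction with 1 base between them, the element of PPAR γ with its partner RXR, was in none of the 39 windows of the enzymes and in 0.0396% of all. None of the 9 genes that fell and had a window held any of the 4 motifs. The median GC content was 61.7% over the windows of the enzymes and 52.7% over all windows.

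In the pyruvate dehydrogenase complex, the means of all 5 genes were lower after 7 days of DSS in CD4cre mice, and 3 of them fell. Dld, the dihydrolipoamide dehydrogenase that the complex shares with the oxoglutarate dehydrogenase of the cycle, was at 11.36, 11.14 and 11.35 on day 0, 11.05, 11.36 and 11.43 on day 2 and 10.51, 10.10 and 10.73 on day 7 in CD4cre mice (log2 values of replicates 1, 2 and 3). In WT mice it was at 11.55, 11.57 and 11.42 on day 0, 11.19, 11.24 and 11.30 on day 2 and 11.03 and 11.12 on day 7. Every CD4cre sample of day 7 lay under each of the other 14 samples, and the WT samples of day 7 also lay under those of WT day 0. Dld fell by 0.84 on the log2 scale in CD4cre mice (SE 0.14, adjusted p = 0.00547), a 1.79-fold lower level, and its difference in WT mice was -0.44 (95% interval -0.78 to -0.10).

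Dlat, the dihydrolipoyl transacetylase that forms the core of the complex, was at 9.45, 9.55 and 9.06 on day 0, 9.25, 9.54 and 9.37 on day 2 and 8.52, 8.62 and 8.73 on day 7 in CD4cre mice. The WT samples read 9.0, 9.27 and 9.34 on day 0, 9.37, 9.47 and 9.44 on day 2 and 8.86 and 9.07 on day 7. The 3 CD4cre samples of day 7 were close together and were the lowest of all 17. Dlat fell by 0.73 (SE 0.13, adjusted p = 0.00659) in CD4cre mice, and in WT mice its difference was -0.24 (95% interval -0.55 to 0.07).

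Pdhb, the beta subunit of the decarboxylase, was at 11.75, 11.71 and 11.66 on day 0, 11.59, 11.80 and 11.66 on day 2 and 11.15, 10.93 and 11.48 on day 7 in CD4cre mice. In WT mice it was at 11.56, 11.74 and 11.85 on day 0, 11.45, 11.45 and 11.55 on day 2 and 11.47 and 11.43 on day 7. On day 7 replicate 3 of the CD4cre mice was within the range of the WT samples, and the other 2 were under it. Pdhb fell by 0.52 (SE 0.11, adjusted p = 0.0206) in CD4cre mice. For Pdha1, the alpha subunit of the same enzyme and the target of the kinases, CD4cre replicate 3 stayed at 11.58 on day 7 while replicates 1 and 2 were at 10.66 and 10.64, and the difference of -0.46 was not called (adjusted p = 0.215). Pdhx, which binds Dld to the core, was also highest in replicate 3, at 6.51, 5.85 and 7.03 on day 7 and a difference of -0.54 (adjusted p = 0.187).

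The 4 kinases did not move as one. Pdk2, a widely expressed kinase of the complex, was at 6.06, 6.28 and 6.67 on day 0, 7.07, 6.67 and 6.52 on day 2 and 4.53, 5.05 and 5.13 on day 7 in CD4cre mice. WT mice had 6.51, 5.41 and 5.93 on day 0, 6.06, 6.47 and 6.34 on day 2 and 6.18 and 5.84 on day 7. The CD4cre samples of day 7 were the lowest 3 of all 17, and the other 14 ran from 5.41 to 7.07 with the highest value on day 2 in CD4cre mice. Pdk2 fell by 1.44 (SE 0.27, adjusted p = 0.0102), a 2.7-fold lower level and the largest difference among the 10 enzymes called, and in WT mice the difference was 0.06 (95% interval -0.60 to 0.73).

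Pdk4, the kinase induced by fasting and by fatty acids and a known target of PPAR receptors, varied most between samples. It was at 6.02, 6.54 and 8.96 on day 0, 4.92, 6.81 and 7.74 on day 2 and 8.31, 7.31 and 9.24 on day 7 in CD4cre mice. In WT mice it was at 9.17, 7.33 and 9.78 on day 0, 5.96, 6.10 and 5.55 on day 2 and 7.79 and 7.36 on day 7. The 3 WT samples of day 2 were close together and under all WT samples of days 0 and 7, a difference of -2.89 against day 0 that was not called (SE 0.90, adjusted p = 0.24). These samples of day 2 also stood above all WT samples of days 0 and 7 in Hox score. In CD4cre mice all 3 days overlapped, with a difference of 1.11 between days 7 and 0 (95% interval -0.85 to 3.07).

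Pdk1, which is induced in hypoxia, was at 10.03, 10.01 and 9.94 on day 0 and 10.20, 9.33 and 9.67 on day 7 in CD4cre mice, and between 9.57 and 10.05 in the other groups. Its difference of -0.25 in CD4cre mice was not called (95% interval -0.67 to 0.16). Pdk3 was at 8.03, 7.67 and 7.67 and 7.99, 7.72 and 7.76 on these days, with WT replicate 3 of day 0 at 8.71 and all others between 7.67 and 8.06. The 2 days overlapped, with a difference of 0.03 (95% interval -0.37 to 0.43).

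**Figure D2:**
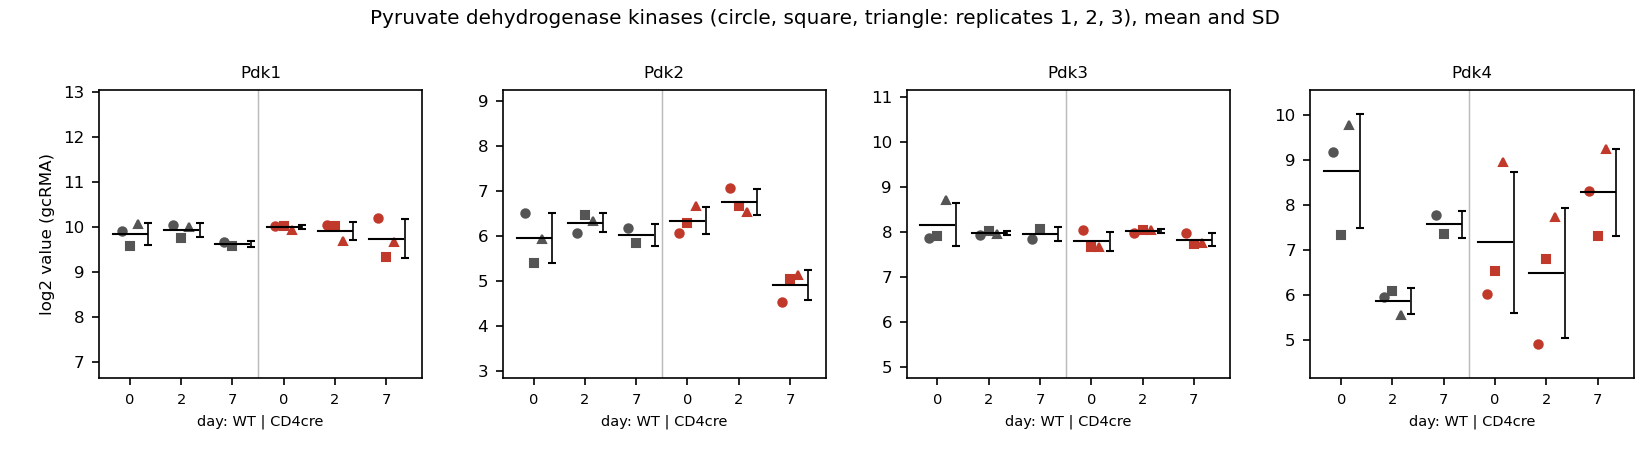
Log2 value (y axis) of the 4 pyruvate dehydrogenase kinases in each sample by genotype and day of DSS (x axis), with group means as lines and SD as bars, on y axes of equal length. Pdk2 is lowest in the CD4cre samples of day 7, at 4.53 to 5.13, and Pdk4 is spread from 4.92 to 9.78.

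Among the mitochondrial cycle enzymes, 15 of 16 had lower means after 7 days of DSS in CD4cre mice. Cs, citrate synthase, which starts the cycle, was at 13.80, 13.79 and 13.44 on day 0, 13.77, 13.85 and 13.76 on day 2 and 12.99, 13.04 and 13.23 on day 7 in CD4cre mice. In WT mice it was at 13.34, 13.70 and 13.51 on day 0, 13.93, 13.86 and 13.84 on day 2 and 13.22 and 13.16 on day 7. All 5 samples of day 7, of both genotypes, lay under all samples of days 0 and 2. Cs fell by 0.59 in CD4cre mice (SE 0.10, adjusted p = 0.00748).

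On the probe sets that stood for the enzymes, Cs was the only one of the 32 called between days 7 and 2 in WT mice, where it fell by 0.69 (SE 0.12, adjusted p = 0.0403) and 0.104% of all probe sets were called lower. A further probe set of Cs was the only one of the other 31 called there, with a difference of -0.57 (adjusted p = 0.0331). In CD4cre mice it fell by 0.71 between these days (SE 0.10, adjusted p = 0.00342). The WT call ended in 13 of 27 other settings, among them the fits without any 1 of the 5 samples compared that without the samples with pancreatic transcripts (adjusted p = 0.126) and that with the Hox score as a covariate (-0.39, adjusted p = 0.457). The Hox score was 1.13, 1.06 and 0.77 in the WT samples of day 2 and -1.49 and -1.36 in those of day 7, without overlap.

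The NAD-dependent isocitrate dehydrogenase, which makes oxoglutarate from isocitrate, has 3 kinds of subunit, and all 3 fell in CD4cre mice. Idh3a, its catalytic subunit, was at 12.20, 12.13 and 11.88 on day 0, 12.02, 12.11 and 11.80 on day 2 and 11.01, 10.50 and 11.58 on day 7. In WT mice it was at 12.17, 12.07 and 11.87 on day 0, 12.13, 12.20 and 12.20 on day 2 and 11.79 and 11.89 on day 7. CD4cre replicate 2 of day 7 was the lowest of all samples and replicate 3 the highest of its group, still under every other sample. Idh3a fell by 1.04 (SE 0.20, adjusted p = 0.0122), a 2.06-fold lower level, and its difference in WT mice was -0.20 (95% interval -0.70 to 0.30).

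Idh3b was at 12.45, 12.44 and 12.62 on day 0, 12.59, 12.51 and 12.45 on day 2 and 11.86, 11.38 and 12.25 on day 7 in CD4cre mice. The WT values were 12.56, 12.39 and 12.46 on day 0, 12.28, 12.36 and 12.58 on day 2 and 12.49 and 12.48 on day 7. The CD4cre samples of day 7 lay under all others, with replicate 3 near the lowest WT sample. Idh3b fell by 0.67 (SE 0.16, adjusted p = 0.03), and its difference in WT mice was 0.01 (95% interval -0.38 to 0.41).

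Idh3g was at 11.49, 11.43 and 11.27 on day 0, 11.30, 11.46 and 11.23 on day 2 and 10.80, 10.47 and 11.06 on day 7 in CD4cre mice. Its values in WT mice were 11.25, 11.35 and 11.37 on day 0, 11.30, 11.21 and 11.33 on day 2 and 11.28 and 11.34 on day 7. The CD4cre samples of day 7 again lay under all others, and the WT groups of all 3 days overlapped. Idh3g fell by 0.61 (SE 0.12, adjusted p = 0.0111), and its difference in WT mice was -0.02 (95% interval -0.30 to 0.27). Idh2, the mitochondrial isocitrate dehydrogenase that uses NADP, was at 8.09, 7.72 and 9.03 on day 7 in CD4cre mice and between 8.90 and 9.40 in all other samples, and its difference of -0.78 was not called (adjusted p = 0.0903).

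Suclg1, the alpha subunit of succinyl-CoA ligase, was at 12.87, 12.85 and 12.92 on day 0, 12.95, 12.95 and 12.82 on day 2 and 11.77, 11.23 and 12.43 on day 7 in CD4cre mice. WT samples stood at 12.96, 12.95 and 12.83 on day 0, 12.92, 12.81 and 12.95 on day 2 and 12.75 and 12.80 on day 7. The 14 samples outside CD4cre day 7 lay between 12.75 and 12.96, and every CD4cre sample of day 7 was under them. Suclg1 fell by 1.07 (SE 0.21, adjusted p = 0.0117), a 2.09-fold lower level. Its partners are the beta subunits Suclg2, for GTP, and Sucla2, for ATP, whose differences of -0.49 and -0.20 were not called (adjusted p = 0.221 and 0.273).

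Mdh2, the mitochondrial malate dehydrogenase that closes the cycle, was at 14.29, 14.18 and 14.25 on day 0, 14.16, 14.25 and 14.19 on day 2 and 14.08, 13.70 and 13.89 on day 7 in CD4cre mice. The values of WT mice were 14.39, 14.34 and 14.45 on day 0, 14.06, 14.18 and 14.21 on day 2 and 14.13 and 14.16 on day 7. In WT mice the samples of days 2 and 7 lay under those of day 0, and CD4cre replicate 1 of day 7 overlapped them. Mdh2 fell by 0.35 in CD4cre mice (SE 0.08, adjusted p = 0.0204), the smallest of the differences called, and in WT mice the difference was -0.24 (95% interval -0.43 to -0.06).

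The other cycle enzymes were not called in any comparison. The 4 subunits of succinate dehydrogenase, which also serves as a complex of the respiratory chain, had differences of -0.34 (Sdhb) to -0.21 (Sdhd) on day 7 in CD4cre mice. For Sdha, Sdhb and Fh1, fumarate hydratase, CD4cre replicate 2 of day 7 stood farthest down, at 11.14, 11.46 and 10.44. Replicates 1 and 3 were at 11.72 and 12.07 for Sdha, 12.37 and 12.53 for Sdhb, and 11.23 and 11.38 for Fh1. For Fh1 all 3 samples lay under those of day 0, at 11.56, 11.53 and 11.52, with a difference of -0.52 (adjusted p = 0.114). Ogdh and Dlst, the decarboxylase and the core of oxoglutarate dehydrogenase, had differences of -0.29 and 0.03, beside their shared subunit Dld at -0.84.

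**Figure D3:**
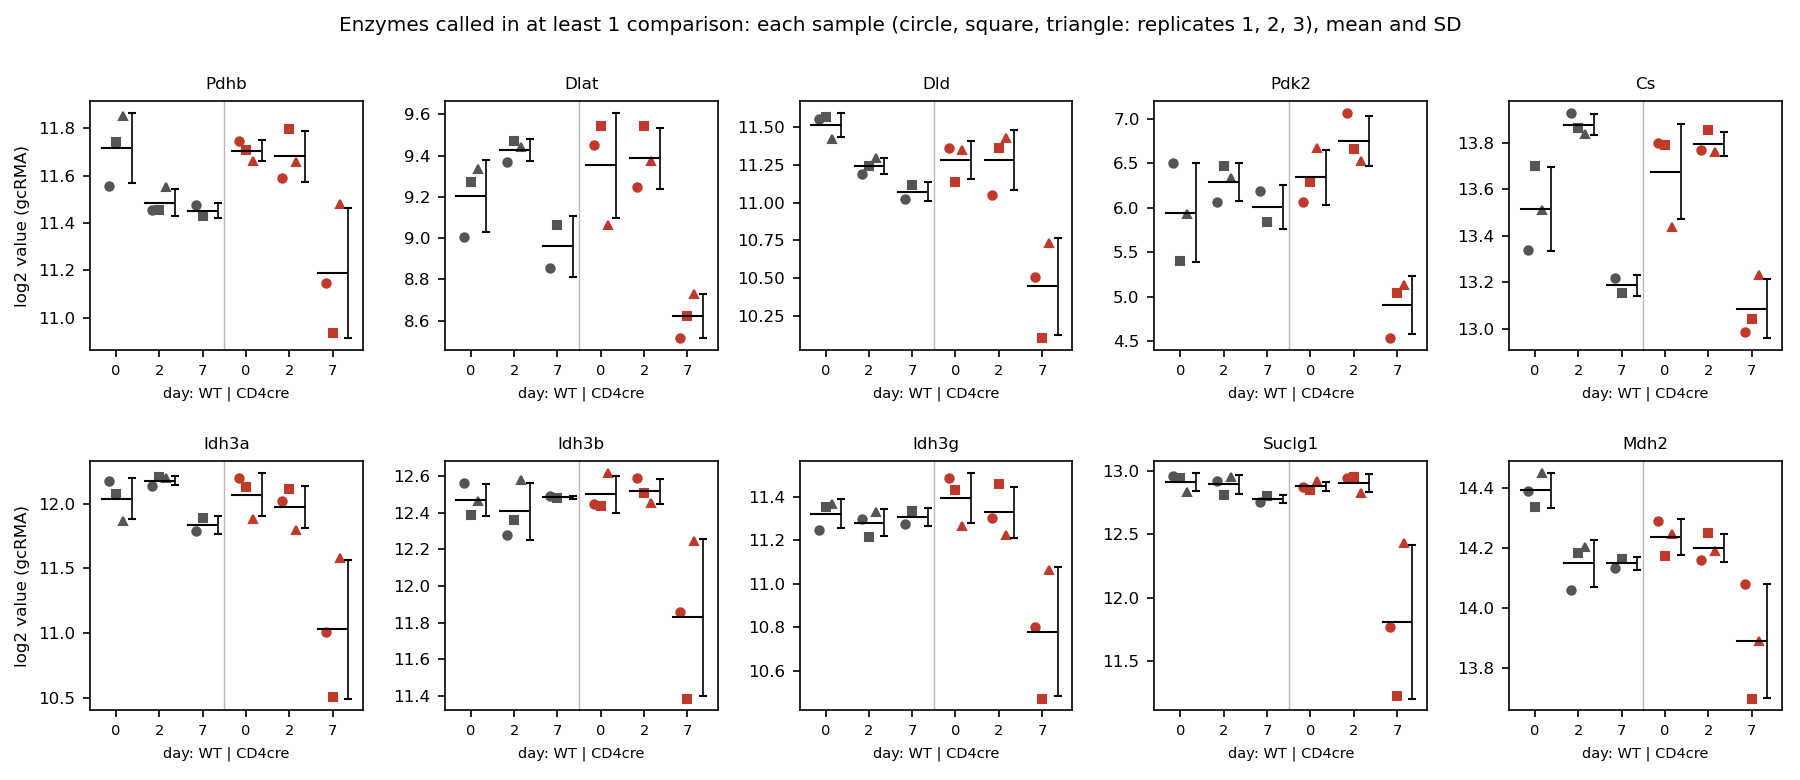
Log2 value (y axis, scaled to each enzyme) of the 10 enzymes called in at least 1 comparison, in each sample by genotype and day of DSS (x axis), with group means as lines and SD as bars. The CD4cre samples of day 7 have the lowest group mean for all 10, and their spread is wide for Suclg1 (11.23 to 12.43) and narrow for Dlat (8.52 to 8.73).

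None of the 5 cytosolic enzymes and neither side reaction was called in any of the 11 comparisons on the probe set that stood for it. Further probe sets of the cytosolic Acly and Mdh1 and of Me2 were called lower on day 7 against day 0 in CD4cre mice. The lack of calls here therefore depends on which probe set stood for an enzyme. Mdh1, the cytosolic malate dehydrogenase, had 14.44, 14.39 and 14.60 on day 0 and 14.31, 14.14 and 13.80 on day 7 in CD4cre mice, which did not overlap (difference -0.39, adjusted p = 0.066). Aco1, cytosolic aconitase, and Acly, which splits citrate to acetyl-CoA for lipid synthesis, had differences of -0.31 and -0.32. Idh1 and Me1, which supply NADPH in the cytosol, had 0.12 and -0.10.

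Pcx, pyruvate carboxylase, which makes oxaloacetate from pyruvate, varied widely over the days in WT mice. It was at 6.40, 7.90 and 7.16 on day 0, 8.56, 8.84 and 8.15 on day 2 and 5.80 and 5.62 on day 7 in WT mice and at 7.79, 8.10 and 6.57 on day 0, 8.34, 7.72 and 7.88 on day 2 and 6.79, 7.60 and 6.26 on day 7 in CD4cre mice. The WT groups of the 3 days did not overlap, with the highest values on day 2 and the lowest on day 7, a difference of -2.81 between these days (SE 0.52, adjusted p = 0.0554). The WT samples of these 2 days also differed in Hox score, as given for Cs. Pcx was not called with that score as a covariate either, and the size of its difference in that fit is not given here. Me2, the mitochondrial malic enzyme, had a difference of -1.0 between days 7 and 0 in WT mice (adjusted p = 0.488) and of -0.36 in CD4cre mice, where its values on day 7 ran from 7.72 to 9.55.

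Other probe sets of the same enzymes gave a second reading. Of the 31 that had a mean above background, 13 were called lower on day 7 against day 0 in CD4cre mice and none higher, against 3.24% of all probe sets and 6.58% of the genes above background called lower. The 13 probe sets belonged to 10 enzymes, of which Pdha1, Acly, Mdh1 and Me2 were not called on the probe set that stood for them, so that 14 of the 32 had a call on at least 1 probe set. Of the 11 further probe sets of the 10 enzymes called, 8 were called as well. A further probe set of Pdhb had a difference of -1.69, that of Pdha1 one of -1.21 (adjusted p = 0.0399), and of the Acly probe sets one had -1.09 and another -0.56.

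In CD4cre mice the fall was seen between days 2 and 7. On day 2 none of the 32 was called against day 0 (0.0178% of all probe sets were), with a median difference of -0.01 and 17 negative differences, and none was under an unadjusted p of 0.05. Between days 7 and 2, 10 enzymes fell and none rose, against 2.93% of all probe sets and 6.48% of the genes above background called lower, and they were the same 10 as against day 0. The call of Mdh2 between these days was lost in 17 of 27 other settings, with 11 of the 17 fits that left out 1 sample among them. These 2 comparisons share their samples of day 7. The median was -0.44, and Pdk2 had the largest difference called, -1.85 (SE 0.27, adjusted p = 0.00332). With only the 2 groups at issue fitted none was called, while the fit without CD4cre day 2 replicate 2 called 5, that without the samples with pancreatic transcripts 4, and that with the Hox score as a covariate 17.

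After 2 days of DSS, WT mice had no call among the 32 against day 0 (0.449% of all probe sets were), with a median difference of -0.18 and 23 negative differences. At an unadjusted p under 0.05 were 7 enzymes, beside 2202 of the 11831 genes above background. Cs was higher in all 3 samples of day 2 than in those of day 0, by 0.36 (adjusted p = 0.196), and Mdh2 was lower in all 3, with a difference of -0.24 (adjusted p = 0.247). The WT samples of these days also differed in Hox score, at 1.13, 1.06 and 0.77 on day 2 and -1.12, -0.03 and -0.93 on day 0, without overlap. What position adds to these differences is not given here.

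The genotypes were also compared directly. No enzyme was called on day 0 or on day 2 (0.00666% and 0.0422% of all probe sets were), and none was under an unadjusted p of 0.05. On day 7 none was called either, where 1.51% of all probe sets were, but 11 had an unadjusted p under 0.05, beside 3101 of the 11831 genes above background. Of the differences of CD4cre minus WT 27 were negative, and the median of the 32 was -0.26, against -0.01 over all probe sets and -0.05 over the genes above background. All 3 CD4cre samples lay under both WT samples for 12 enzymes, an order found for 19.6% of all probe sets and for 23.5% of the genes above background. The lowest adjusted p was that of Suclg1, with a difference of -0.96 (SE 0.23, adjusted p = 0.0647, 95% interval -1.47 to -0.46). Dld followed at -0.63 (adjusted p = 0.0718), Idh3g at -0.53 (adjusted p = 0.0764), Pdk2 at -1.10 (adjusted p = 0.102) and Idh3b at -0.66 (adjusted p = 0.103). Pcx had a difference of 1.17 (adjusted p = 0.307), the opposite sign. Among the 31 other probe sets of the enzymes above background, 3 were called lower in CD4cre mice on day 7 and none higher, and 28 differences were negative. Called lower in this comparison were 0.806% of all probe sets and 1.64% of the genes above background. The 3 were a pair for Idh3a at -0.90 and -0.95 (adjusted p = 0.0339 and 0.0489) and one for Mdh1 at -0.34 (adjusted p = 0.0131).

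Whether DSS acted to a different extent in the genotypes was itself tested. On day 7 it was called for none of the 32 (0.14% of all probe sets were called), with 24 negative values. The median was -0.21, against -0.06 over the genes above background. At an unadjusted p under 0.05 there were 6, namely Suclg1, Idh3g, Idh3b, Dlat, Idh3a and Pdk2. So were 2190 of the 11831 genes above background, a share close to that of the enzymes. Pdk2 had the lowest adjusted p, with a difference of effects of -1.50 (SE 0.41, adjusted p = 0.186, 95% interval -2.39 to -0.61), and Suclg1 had -0.93 (95% interval -1.60 to -0.25). For Cs it was -0.26 (95% interval -0.60 to 0.08) and for Mdh2 -0.10 (95% interval -0.36 to 0.15), so both signs lie within those intervals. On day 2 none was called (0.00222% of all probe sets were) and none was under an unadjusted p of 0.05. Without CD4cre day 7 replicate 3, the genotypes differed on day 7 for 8 enzymes and the effects of DSS for 6, and without replicate 1 the genotypes differed for 1.

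**Figure D4:**
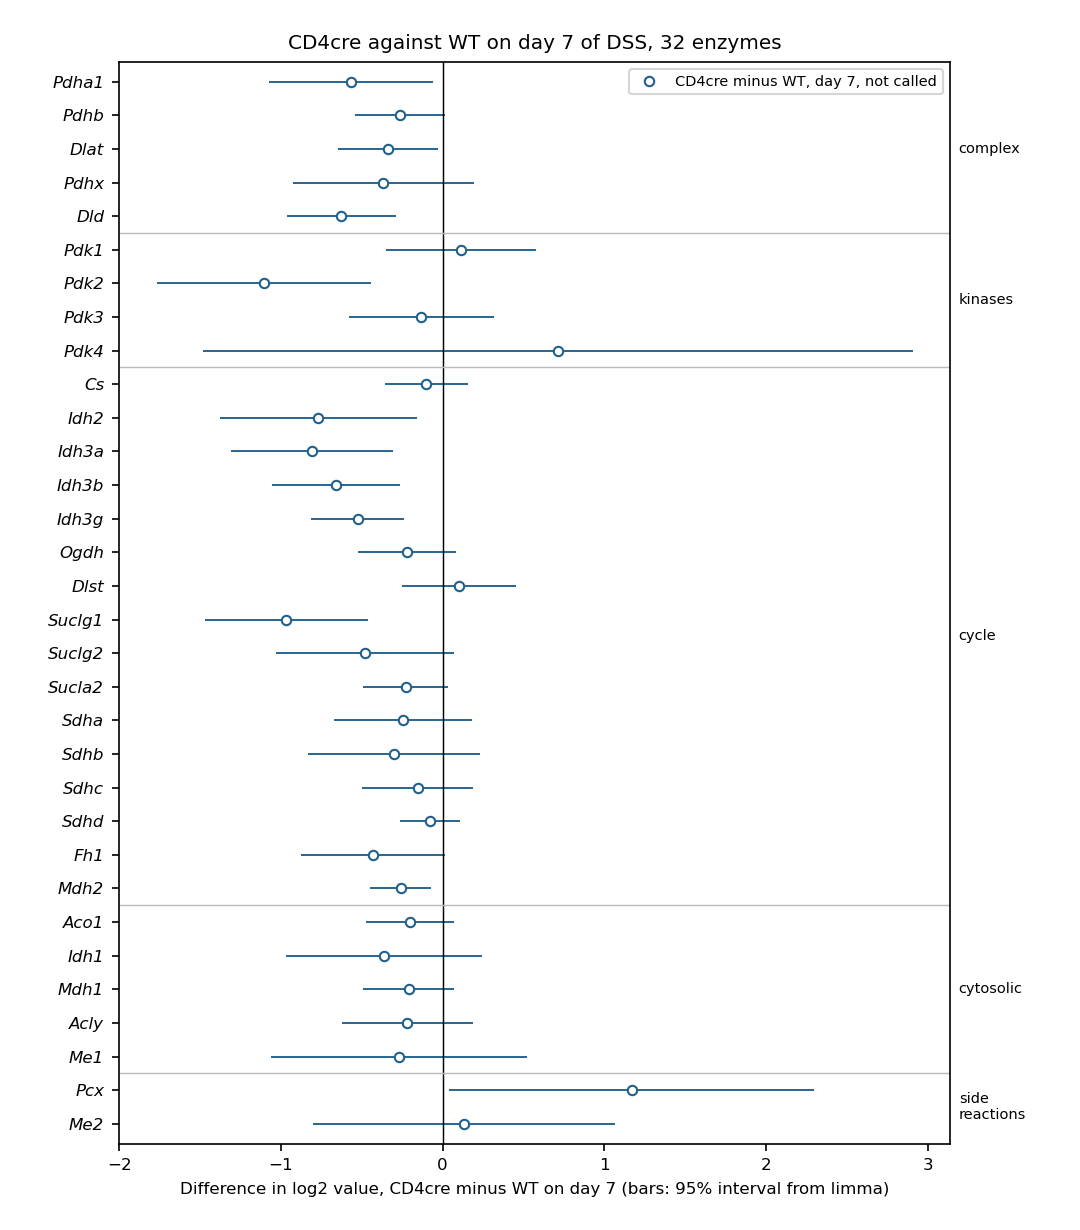
Difference in log2 value between CD4cre and WT mice on day 7 (x axis) for each of the 32 enzymes (y axis, by role), with the 95% interval from limma as bars. None has an adjusted p under 0.05, and 27 of the 32 points lie left of 0, with Suclg1 at -0.96 and Pcx at 1.17 as examples of each side.

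The spread within CD4cre mice on day 7 was wide and went through most enzymes at once. Replicate 2 had the lowest value of its group for 24 of the 32 and replicate 3 the highest for 21. Replicate 2 also had a Hox score of 0.21, against -1.01 and -1.22 in replicates 1 and 3, and a Pparg value of 8.28, against 10.60 and 10.42, and the part of position in its enzyme values was not tested. The median over the 32 enzymes of the SD between samples was 0.38 in this group and 0.06 to 0.17 in the other 5. Its root mean square was 0.47 and 0.14 to 0.35, where Pdk4 had an SD of 1.57, 1.44 and 1.28 in CD4cre mice on days 0 and 2 and WT mice on day 0. The fit shared its estimate of the spread among all groups. The SEs, intervals and p-values of comparisons with CD4cre mice on day 7 therefore do not carry the wider spread of that group. Averaged over the 16 mitochondrial cycle enzymes, the log2 value was 11.42, 10.94 and 11.63 in the 3 CD4cre samples of day 7 and 11.71 to 11.95 in the other 14 samples. That of the 5 genes of the complex was 9.47, 9.23 and 9.91, against 9.96 to 10.32.

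Markers of other cell types moved in the same samples. On day 7 against day 0 in CD4cre mice 3.5% of all probe sets and 6.33% of the genes above background were called higher. All 11 macrophage markers rose, and their mean was 8.58, 9.77 and 8.48 in replicates 1, 2 and 3, against 6.55 to 6.75 on day 0, when 1 of them was under background. Of 8 fibroblast and matrix markers 6 rose, to a mean of 11.30, 12.44 and 11.23 from 10.29 to 10.37, and of 10 neutrophil markers measured 2 rose, with 8 of the 10 under background on day 0 and 6 on day 7. Replicate 2, the lowest for most enzymes, was the highest of its group for all 3 lists. None of the 16 epithelial markers was called against day 0, with a mean of 13.09 to 13.33 on day 7 and 12.89 to 13.43 on day 0 and a median difference of 0.07. Single epithelial markers went both ways, 7 negative and 9 positive, with differences from -1.14 to 0.68. The 8 smooth muscle markers were not called, with 8 negative differences and a median of -0.46, and neither were the 8 T and B cell markers. Between days 7 and 2 in CD4cre mice, when the same enzymes fell, 2 of the 16 epithelial markers were called lower, the keratins Krt18 (-0.99, adjusted p = 0.038) and Krt19 (-0.53, adjusted p = 0.0475), with 11 negative differences, a median of -0.15 and a list mean of 13.43 to 13.63 on day 2. In the same comparison 2 of the 8 smooth muscle markers were called lower, with 8 negative differences and a median of -0.73, and 9 of the 11 macrophage and 3 of the 8 fibroblast markers were called higher. Between these days 2.93% of all probe sets and 6.48% of the genes above background were called lower, and 2.49% and 4.4% higher. No macrophage or fibroblast marker was called in WT mice on day 7 against day 0. The macrophage mean in WT mice was 7.50 and 7.67 on day 7, against 6.725 to 6.94 on day 0. There, all 11 macrophage differences were positive, with a median of 0.66, against 0.04 over the genes above background. Of the 8 fibroblast differences in WT mice 6 were positive and 2 negative, with a median of 0.31. The part of these cells in the fall of the enzymes was not tested.

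**Figure D5:**
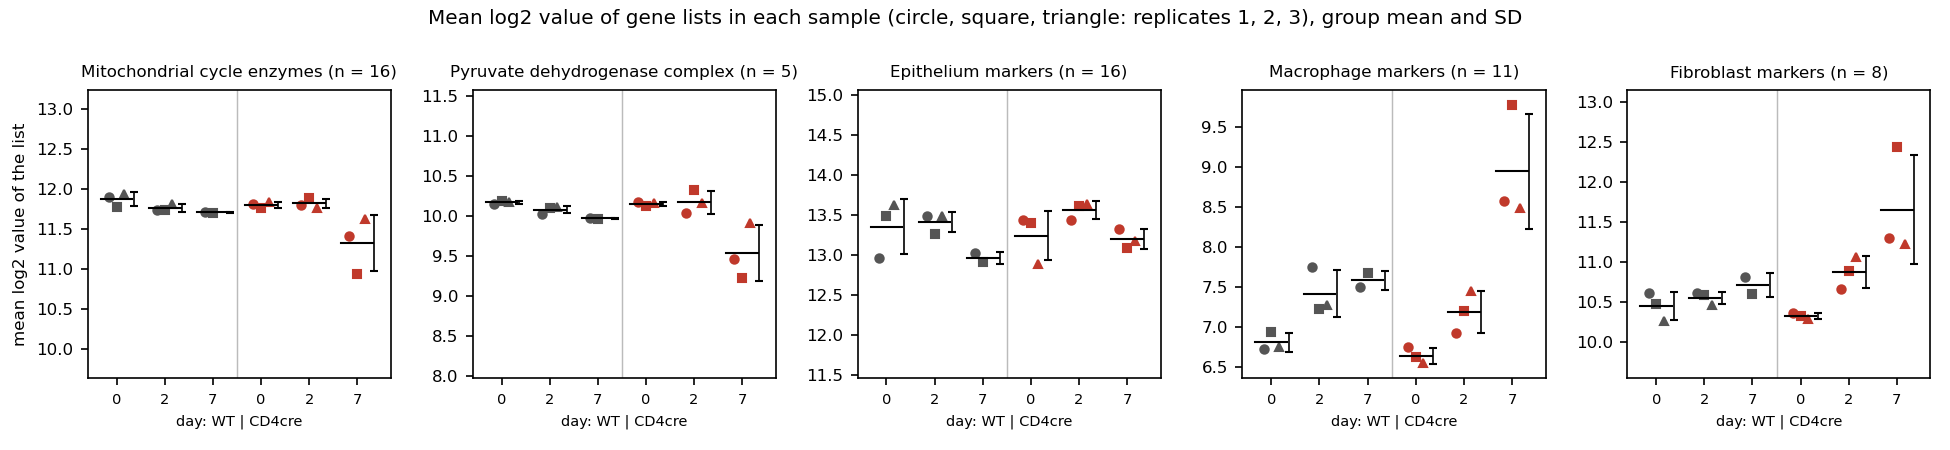
Mean log2 value (y axis, all of equal length) of the mitochondrial cycle enzymes, the pyruvate dehydrogenase complex and the markers of epithelium, macrophages and fibroblasts in each sample by genotype and day of DSS (x axis), with group means as lines and SD as bars. In CD4cre mice on day 7 the enzymes are lowest and the macrophage and fibroblast markers highest, with replicate 2 (square) farthest out. The mean of the epithelial markers stays within 12.89 to 13.63 in all samples, which does not show how single markers moved.

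Genes that feed the cycle or regulate it, in 4 further lists, showed 12 calls on day 7 against day 0 in CD4cre mice, all lower. In this comparison 3.24% of all probe sets and 6.58% of the genes above background were called lower. Of 7 measured genes of pyruvate transport, phosphatases and lactate, 1 fell, Mpc1, a subunit of the mitochondrial pyruvate carrier. It was at 12.60, 12.60 and 12.76 on day 0 and 11.49, 11.47 and 12.16 on day 7, without overlap, and it fell by 0.94 (SE 0.16, adjusted p = 0.00601). Of 14 other genes of the cycle and of keto acid dehydrogenases 4 fell. They were Pck1, which draws oxaloacetate off to phosphoenolpyruvate, by 1.78 (adjusted p = 0.00876), Sdhaf2 and Sdhaf4, assembly factors of succinate dehydrogenase, by 0.52 and 0.75 (adjusted p = 0.00805 and 0.0442), and Bckdhb, of the branched-chain keto acid dehydrogenase, by 0.73 (adjusted p = 0.0282).

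Of 13 measured genes of shuttles, glutamate and acetyl-CoA supply, 5 fell. Acss2, the acetyl-CoA synthetase of cytosol and nucleus, was at 10.58, 10.44 and 10.22 on day 0 and 9.04, 8.60 and 8.92 on day 7, without overlap. It fell by 1.56 (SE 0.23, adjusted p = 0.00319), a 2.95-fold lower level. The others were Gpt2, mitochondrial alanine aminotransferase, by 1.11, Slc25a11, the oxoglutarate carrier, by 0.79, Acss1, the mitochondrial acetyl-CoA synthetase, by 0.73, and Glud1, glutamate dehydrogenase, by 0.45 (adjusted p = 0.00755, 0.0245, 0.0135 and 0.0238). Of 14 regulators of mitochondrial genes, Ppargc1a, the coactivator PGC-1α, fell by 1.65 (adjusted p = 0.0441) and Tfb2m, a mitochondrial transcription factor, by 0.58 (adjusted p = 0.0393). The medians of the 4 lists were 0.08, -0.41, -0.45 and -0.39, against -0.03 over all probe sets and -0.04 over the genes above background. Sdhaf4, Ppargc1a and Tfb2m lay beyond the 12 genes of lowest adjusted p that were to be named and were added after their values were seen. In WT mice none of these genes was called in this comparison.

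Between the genotypes on day 7, 3 genes of these lists were called, where 1.51% of all probe sets and 2.91% of the genes above background were. In CD4cre minus WT mice Pck1 had a difference of -1.87 (adjusted p = 0.032) and Acss1 of -0.76 (adjusted p = 0.0465), both lower in CD4cre mice, and Pkm, pyruvate kinase, was higher by 0.61 (adjusted p = 0.0283). Pdp2, a phosphatase that reactivates the complex, was at 2.59, 3.73 and 2.64 on day 0, 5.83, 4.78 and 5.33 on day 2 and 2.58 and 2.57 on day 7 in WT mice and at 3.52, 3.29 and 2.64 on day 0, 5.25, 4.48 and 3.85 on day 2 and 2.54, 2.56 and 2.58 on day 7 in CD4cre mice. It was above background in every sample of day 2 and under it in every sample of day 7, so its fold changes are lower bounds against the background level. In WT mice Pdp2 was on day 2 at least 4.16-fold higher than without DSS (adjusted p = 0.0348). It was on day 7 at least 4.16-fold lower than on day 2 in WT mice (adjusted p = 0.0325) and at least 2.41-fold lower in CD4cre mice (adjusted p = 0.0152). The Hox score of the WT samples of day 2 also stood above that of all WT samples of days 0 and 7, and the part of position in the Pdp2 values was not tested.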

How the data were processed

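RNA of 17 colon samples was measured on Affymetrix mouse genome arrays. The authors normalized the probe signals with GCRMA in R 2.9.0 and deposited 1 log2 value per probe set and sample, and these log2 values were used as given. Probe sets were named through the platform annotation, in which 34945 of the 45037 without controls have 1 gene, 932 several and 9160 none. The background level is the 95th percentile of 58 probe sets of 40 genes of other tissues (log2 3.26).

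Group means of all 17 samples were fitted with limma 3.58.1 in R 4.3.3, with 11 residual degrees of freedom, and 11 comparisons were called at a Benjamini-Hochberg adjusted p under 0.05 over all 45037 probe sets. Levels are not compared between probe sets, and the number of arrays limits the precision. Other fits, normalizations and sample sets were tried as alternatives.

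The members, lists and tests were chosen with earlier results of these data known. Values of every sample are given for the enzymes called in any comparison and for the kinases. Up to 12 called genes of the pathway lists were to be named in order of adjusted p. Got2 was among these 12 and is not described, and Sdhaf4, Ppargc1a and Tfb2m beyond them were added. Values of Pdha1, Pdhx, Idh2, Sdha, Sdhb, Fh1, Mdh1, Pcx, Me2 and Pdp2 in single samples were added after they were seen.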

Additional observations from a re-analysis of the deposited data

How the results depend on the processing

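Over 27 other settings no direction reversed for the 21 called differences of single enzymes, and of the 567 values 480 stayed past the threshold while 87 did not, and Dld between days 7 and 0 in CD4cre mice stayed called in 26 of 27. Of the 27 settings, 17 left out 1 sample, for each difference mostly from a group that was not compared. Such a fit keeps the difference and changes only the shared estimate of the spread, so the 567 values are not independent checks. The cause of the changes was not tested. The number of the 32 enzymes called between days 7 and 0 in CD4cre mice (10) was 0 in a fit of only the groups compared, 1 without the samples with pancreatic transcripts, and 6 to 14 when 1 sample was left out. A fit of only the groups compared leaves fewer samples to estimate the spread and does not share that estimate with the other groups. Between days 7 and 2 in CD4cre mice (10) it was 0 in a fit of only the groups compared, 4 without the samples with pancreatic transcripts, 17 with the Hox score as a covariate and 5 to 15 with 1 sample left out. Between days 7 and 2 in WT mice (1) it was 2 in a fit of only the groups compared, with arrays centred on their median, with only probe sets above background and with the mean of all probe sets of a gene, 3 with array weights, 0 after quantile normalization, without the samples with pancreatic transcripts and with the Hox score, and 0 to 2 with 1 sample left out, which where WT day 7 keeps 1 sample assumes that it varies like the other groups. Between the genotypes on day 7 (0) it was 4 with array weights, 2 with only probe sets above background, 2 with the mean of all probe sets and 0 to 8 with 1 sample left out. For how far the effects of DSS differed between the genotypes on day 7 (0) it was 3 with array weights and 0 to 6 with 1 sample left out. Array weights, whose estimate stopped before it converged (0.207 to 16.6), gave 13 calls in WT mice on day 2 against day 0, 4 on day 7 against day 0 and 13 between the genotypes on day 0, all from 0.

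Samples of the same replicate number did not pair: of 40 such pairs of samples, 16 had a correlation of their deviations over 0.1 (range -0.45 to 0.51, against -0.65 to 0.53 for other numbers). With the replicate number as a block, 10, 9 and 1 enzymes were called between days 7 and 0 and days 7 and 2 in CD4cre mice and days 7 and 2 in WT mice.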
